A study of Mus musculus with 2 samples.

Results

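The 34 genes described here encode enzymes and regulators of cholesterol and fatty acid synthesis, and they were read in 2 single-cell RNA libraries of newborn mouse skin. They were taken from a list of gene symbols, and each of the 34 symbols matched 1 of the 32285 genes counted. The sterol arm holds 18 of them, from the mevalonate enzymes to the last steps before cholesterol, with the regulators Insig1 and Srebf2. The fatty acid arm holds the other 16, with the regulator Srebf1, the synthases, desaturases and elongases, and 3 enzymes that activate or esterify lipids.

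Cholesterol is made from acetyl-CoA by way of mevalonate, squalene and lanosterol. The transcription factor SREBP2, the product of Srebf2, raises nearly every enzyme of that route when sterol is scarce, SREBP1 (Srebf1) acts more on the fatty acid genes, and INSIG1 holds both precursors back when sterol is plentiful. In mouse skin, sebocytes produce a sebum of wax esters, sterol esters and triglycerides, while differentiating keratinocytes make cholesterol, fatty acids and ceramides for the water barrier.

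Both libraries came from dorsal skin of mice at postnatal day 3 that had been given doxycycline (Dox). The control library is from wild-type animals. The induced library is from animals whose genotype is given as miR-200b induced, and the labels used here name neither the promoter that drives the microRNA nor the number of animals pooled. Epidermal and dermal suspensions were mixed 30:70 before loading, and the series title places the work in the question of how the microRNA-200 family bears on sebaceous gland fate. With 1 library per genotype no difference between them has a replicate check, so no p-value is given, and all intervals cover counting error only.

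The libraries held 9072 and 9114 barcodes with 100409201 and 119705137 UMIs (molecules counted by a tag). After filtering, 4816 control cells (median 14584.5 UMIs) and 4890 induced cells (median 17850.5 UMIs) remained, and 8 of their barcodes occurred in both libraries. Cells were clustered and named "-like" from fixed marker lists, with the member genes kept out of the clustering. Of 32 epithelial clusters 24 were at least 95% from 1 library, and 8 stayed unnamed, with 18.06% of control and 20.83% of induced epithelial cells. Gm13648, a transcript that overlaps the miR-200b locus, was at 2.23 CPM in control and 529.5 CPM in induced epithelial cells. A level in CPM, the usual depth-scaled unit, is a gene's share of the UMIs, summed over the cells of a class in a library. An arm is summarised by the median of its log2 ratios with 5 CPM added to both sides, and "past 2-fold" refers to that scale.

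miR-200b-3p binds transcripts through its seed, bases 2 to 8, so the sequence and the matching 7-base sites in the 3′ UTRs of the members are shown first. The mature sequence (RefSeq, chr4:156055685-156055706, minus strand, GRCm38) has the seed in capitals, and the site CAGTATT is in capitals in the windows, which were read in transcript direction from GENCODE 3′ UTRs on GRCm38.
mmu-miR-200b-3p: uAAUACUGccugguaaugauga
Sqle, chr15:59331139-59331145: ttcttttgatttCAGTATTtggggtga
Hsd17b7, chr1:169950448-169950454: ctctgttagaagCAGTATTtctcacct
Acaca, chr11:84399879-84399885: acatacccgattCAGTATTtattagcc
Scd1, chr19:44397791-44397797: cctattccggtaCAGTATTcttataaa
Scd1, chr19:44395863-44395869: aaaacatcacatCAGTATTttagaacc
Scd2, chr19:44303325-44303331: cccattctggtaCAGTATTgtaaaacg
Scd2, chr19:44306454-44306460: aatactgtgactCAGTATTctgtgaaa
Dgat2, chr7:99154362-99154368: gaagggaagagtCAGTATTttaagctc
The site occurred in 6 of the 34 members (17.6%) and in 13.3% of 20823 genes with a 3′ UTR. The members' 3′ UTRs were the longer, with a median of 1585.5 bases against 960. The seed of miR-200a and miR-141 differs at a single base, and its site CAGTGTT occurred in 7 members (20.6%, against 17.2% of genes), namely Fdft1, Lss, Dhcr7, Srebf2, Scd2, Elovl6 and Acsl1. A match is a description of the letters and not of a target.

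In the control library nearly the whole module was higher in sebaceous-like cells than in the other epithelial cells. Past 2-fold higher were 16 of 18 sterol members and 14 of 16 fatty acid members, where 16.2% of 5743 genes were, counting those that averaged 20 CPM or more. A single member, Sc5d of the sterol arm, was past 2-fold lower, where 17.1% of genes were. The median log2 ratio was 2.64 for the sterol arm and 3.01 for the fatty acid arm, against -0.02 over all genes. The class holds 145 control cells, all 13 sebaceous markers were raised in it, and the comparison is with 3516 epithelial cells outside both sebaceous classes. It describes a cluster against the rest of the same cells and has no test.

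In the mevalonate segment Mvd and Pmvk differed most and Mvk and Hmgcs1 least. Hmgcs1, which condenses acetoacetyl-CoA into HMG-CoA, was at 1095 CPM (1067 to 1123) in sebaceous-like cells and 227 CPM in the others, a ratio of 4.82. Mvk and Pmvk, the successive kinases of mevalonate, were at 201 against 43.7 CPM and at 667 against 50.5 CPM. Mvd, which decarboxylates the product to isopentenyl pyrophosphate, was at 324 CPM (308.5 to 339.5) against 16.3 CPM, a ratio of 19.8. Idi1, the isomerase that follows, and Fdps, which joins the units into farnesyl pyrophosphate, were 8.60-fold and 6.75-fold higher, with Fdps at 1246 CPM.

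From squalene onward Msmo1 and Lss differed most. Fdft1 (squalene synthase) was at 319.9 against 54.6 CPM and Sqle (squalene epoxidase) at 357.8 against 56.9 CPM. Lss, which cyclises epoxysqualene to lanosterol, was 16.9-fold higher, and Cyp51, the lanosterol demethylase, 11.1-fold. Msmo1, the methylsterol oxidase that acts next, was at 2825 CPM (2780 to 2871) against 90.1 CPM. Its log2 ratio of 4.97 (4.93 to 5.01) was the widest of the sterol arm. Its partners in methyl removal, Nsdhl and Hsd17b7, were 8.71-fold and 11.8-fold higher. The last steps were closer together: Ebp, the sterol isomerase, was at 167 against 60.3 CPM and Dhcr7, a late reductase, at 192 against 41.9 CPM. Sc5d, the sterol desaturase between them, ran the other way, at 7.06 CPM (4.97 to 9.73) against 38.1 CPM, a log2 ratio of -2.43 (-2.94 to -1.96). Insig1 was at 158 against 25.6 CPM. Srebf2 was at 126.0 against 62.8 CPM, 2.01-fold as a plain ratio but with a log2 ratio of 0.95 once 5 CPM are added, so it is not counted as past 2-fold.

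In the fatty acid arm Scd1, Scd3, Elovl3, Elovl6 and Soat1 stood far above the rest, between 217-fold (Elovl6) and 572.5-fold (Elovl3) higher. Srebf1 was at 161.5 against 28.4 CPM. Acly, which frees acetyl-CoA from citrate, was 11.4-fold higher, Acaca, which makes malonyl-CoA, 7.63-fold, and Fasn, the synthase itself, 27.6-fold at 798 CPM. Scd1, which puts the first double bond into stearate and palmitate, was at 8526 against 25.7 CPM, a log2 ratio of 8.37 (8.30 to 8.44). Its paralog Scd3 was at 132.4 CPM against 0.251 CPM, and Scd2 at 193.7 against 55.4 CPM. The 3 genes lie together on chromosome 19, and how reads shared between them were assigned is not given in the sources used here. Elovl6, the elongase of palmitate, was at 9375 against 43.2 CPM. Elovl3, an elongase of long chains known from sebaceous gland and brown fat, was at 2618 against 4.57 CPM. Elovl1 was 5.74-fold and Elovl5, which elongates polyunsaturated chains, 23.9-fold higher. Soat1, which esterifies cholesterol, was at 2522 against 8.26 CPM. Dgat2, which completes triglycerides, was 2.42-fold higher, and Acsl1, which activates fatty acids, 2.16-fold. The desaturases of polyunsaturated fatty acids were the exceptions. Fads1 had 3 UMIs in the class, 0.573 CPM against 5.53 CPM, a log2 ratio of -3.27 (-5.56 to -1.71), and Fads2 had none, which allows up to 0.573 CPM, against 1.15 CPM.

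**Figure D1:**
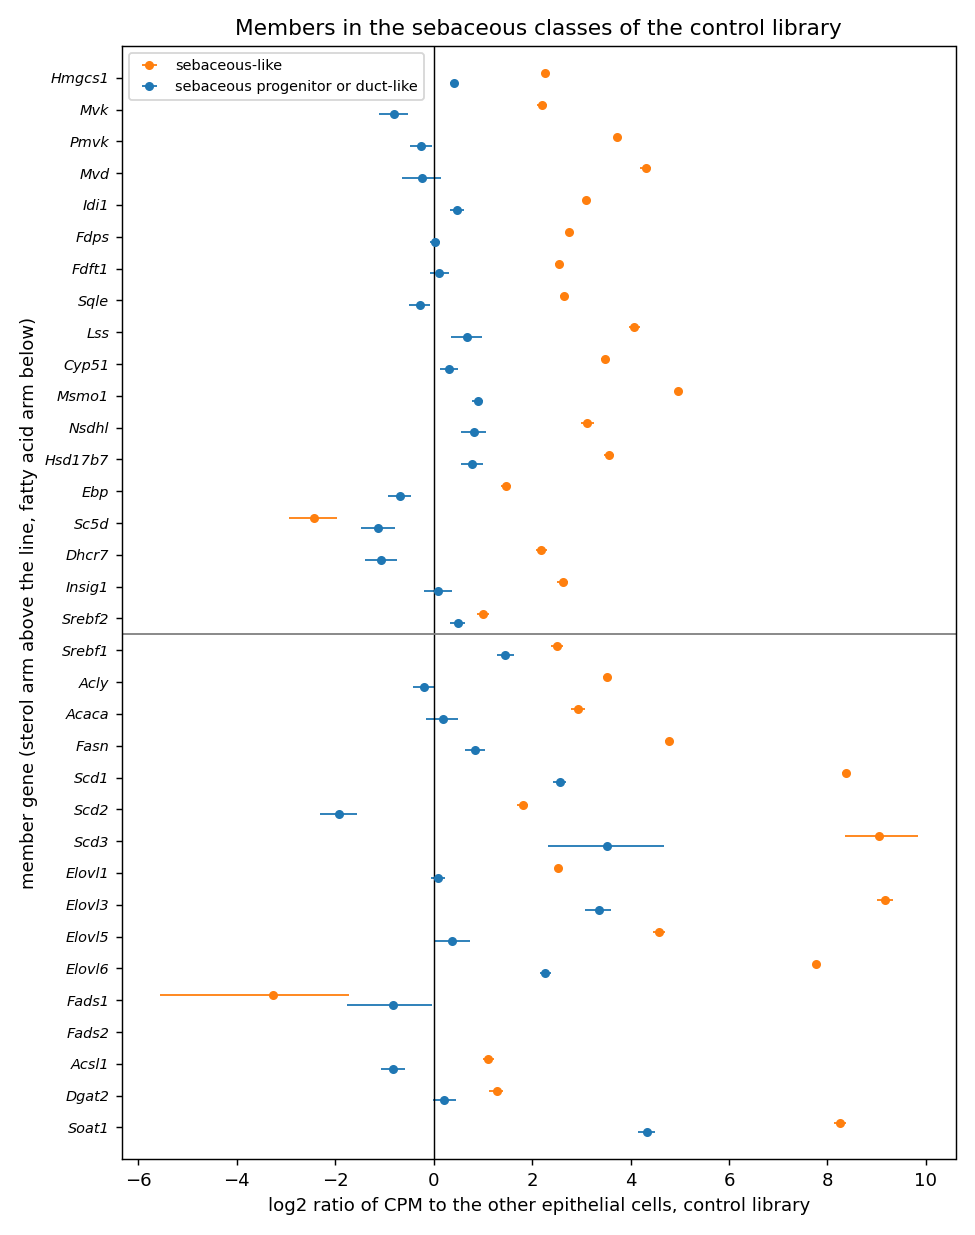
Log2 ratio of each member's CPM in sebaceous-like cells (orange) and in sebaceous progenitor-like or duct-like cells (blue) to the other epithelial cells of the control library, with 95% counting intervals. Orange points lie right of 0 except for Sc5d at -2.43 and Fads1 at -3.27, while most blue points lie near 0, and Fads2 has no point because both sebaceous classes had no UMI.

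The gap was as clear per cell. After each cell was thinned to 2000 UMIs, Scd1 had a UMI in 144 of 144 sebaceous-like cells (100%, exact 95% interval 97.5 to 100; 100% before thinning) and in 3.28% of the other epithelial cells (20.9% before). Elovl3 was seen in 88.9% and 0.634% of thinned cells (98.6% and 4.32% before), and Msmo1 in 92.4% and 13.1% (99.3% and 50.7% before). In fibroblast-like cells, which do not make sebum, the thinned shares were 2.11% for Scd1, 1.15% for Elovl3 and 8.81% for Msmo1. In melanocyte-like cells (median 10156 UMIs) Scd1 was seen in 1 of 79 thinned cells (1.27%; 10.1% before) and Elovl3 in 0 of 79, which allows up to 3.8% (1.27% before). Median depths were 32369, 16050 and 9509 UMIs in the sebaceous-like, other epithelial and fibroblast-like cells.

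The 145 sebaceous-like cells made up 3.67% of control epithelial cells and 6.79% of their UMIs. They held a median of 32.2% of the UMIs of a sterol member (1.38% for Sc5d to 68.5% for Msmo1) and 40.5% of those of a fatty acid member. Their share was over 50% for 3 of 18 sterol members, Mvd, Lss and Msmo1. It was over 50% for 7 of 16 fatty acid members, with Scd1 at 95%, Scd3 at 96.0%, Elovl3 at 96.5%, Elovl6 at 92.8% and Soat1 at 91.4%, and with Fasn and Elovl5 at 65.8% and 63.1%.

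In the neighbouring class of sebaceous progenitor-like or duct-like cells some fatty acid members were higher, while the medians of the arms differed little. Of the fatty acid members 5 were past 2-fold higher than in the other epithelial cells, where 2.75% of genes were, and none of 18 sterol members was. The 5 were Srebf1 (77.8 against 28.4 CPM), Scd1 (151.8 against 25.7), Elovl3 (46.6 against 4.57), Elovl6 (208.5 against 43.2) and Soat1 (165.7 against 8.26). Scd2 was past 2-fold lower at 14.6 against 55.4 CPM, where 5.29% of genes were. Msmo1 was the highest of the sterol enzymes relative to the other cells, at 168 against 90.1 CPM. The medians were 0.10 for the sterol and 0.24 for the fatty acid arm, against 0.01 over all genes. From these 293 cells to the sebaceous-like cells, 16 of 18 sterol and 13 of 16 fatty acid members were past 2-fold higher, against 15% of genes. Free RNA from sebocytes can give UMIs in other cells, and its part in these values was not tested.

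The induced library held 3 sebaceous-like and 7 progenitor-like or duct-like cells. In the 3 sebaceous-like cells Scd1 was at 15440 CPM (14410 to 16530), Elovl6 at 5049, Elovl3 at 2636, Msmo1 at 2432, Soat1 at 1429 and Fasn at 761 CPM. UMIs of 32 of the 34 members were found in them, and Fads1 and Fads2 were at 0. No ratio between the libraries is given for so few cells.

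Other genes of the same pathways were taken from lists that hold 16 sterol and 26 fatty acid genes. Of the sterol list 7 were past 2-fold higher and 1 lower in the sebaceous-like cells, with a median log2 ratio of 0.36, and of the fatty acid list 19 were higher and 4 lower, with a median of 3.67. Over all genes 16.2% were higher and 17.1% lower, so the 4 lower (15.4%) are near the background. Among those that averaged 20 CPM or more, the filter for every such ranking below, the highest were Awat1 (510.5 against 0.782 CPM) and Awat2 (374.6 against 2.52), the wax synthases, and Elovl4 (8178 against 133.4), which elongates very long chains. All 3 are among the markers that named the class. The lowest under that filter were Acsl3 (13.9 against 36.1 CPM), Mbtps1, a protease that activates SREBPs (27.3 against 56.5), and Lbr, a sterol reductase of the nuclear envelope (31.5 against 47.6).

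**Figure D2:**
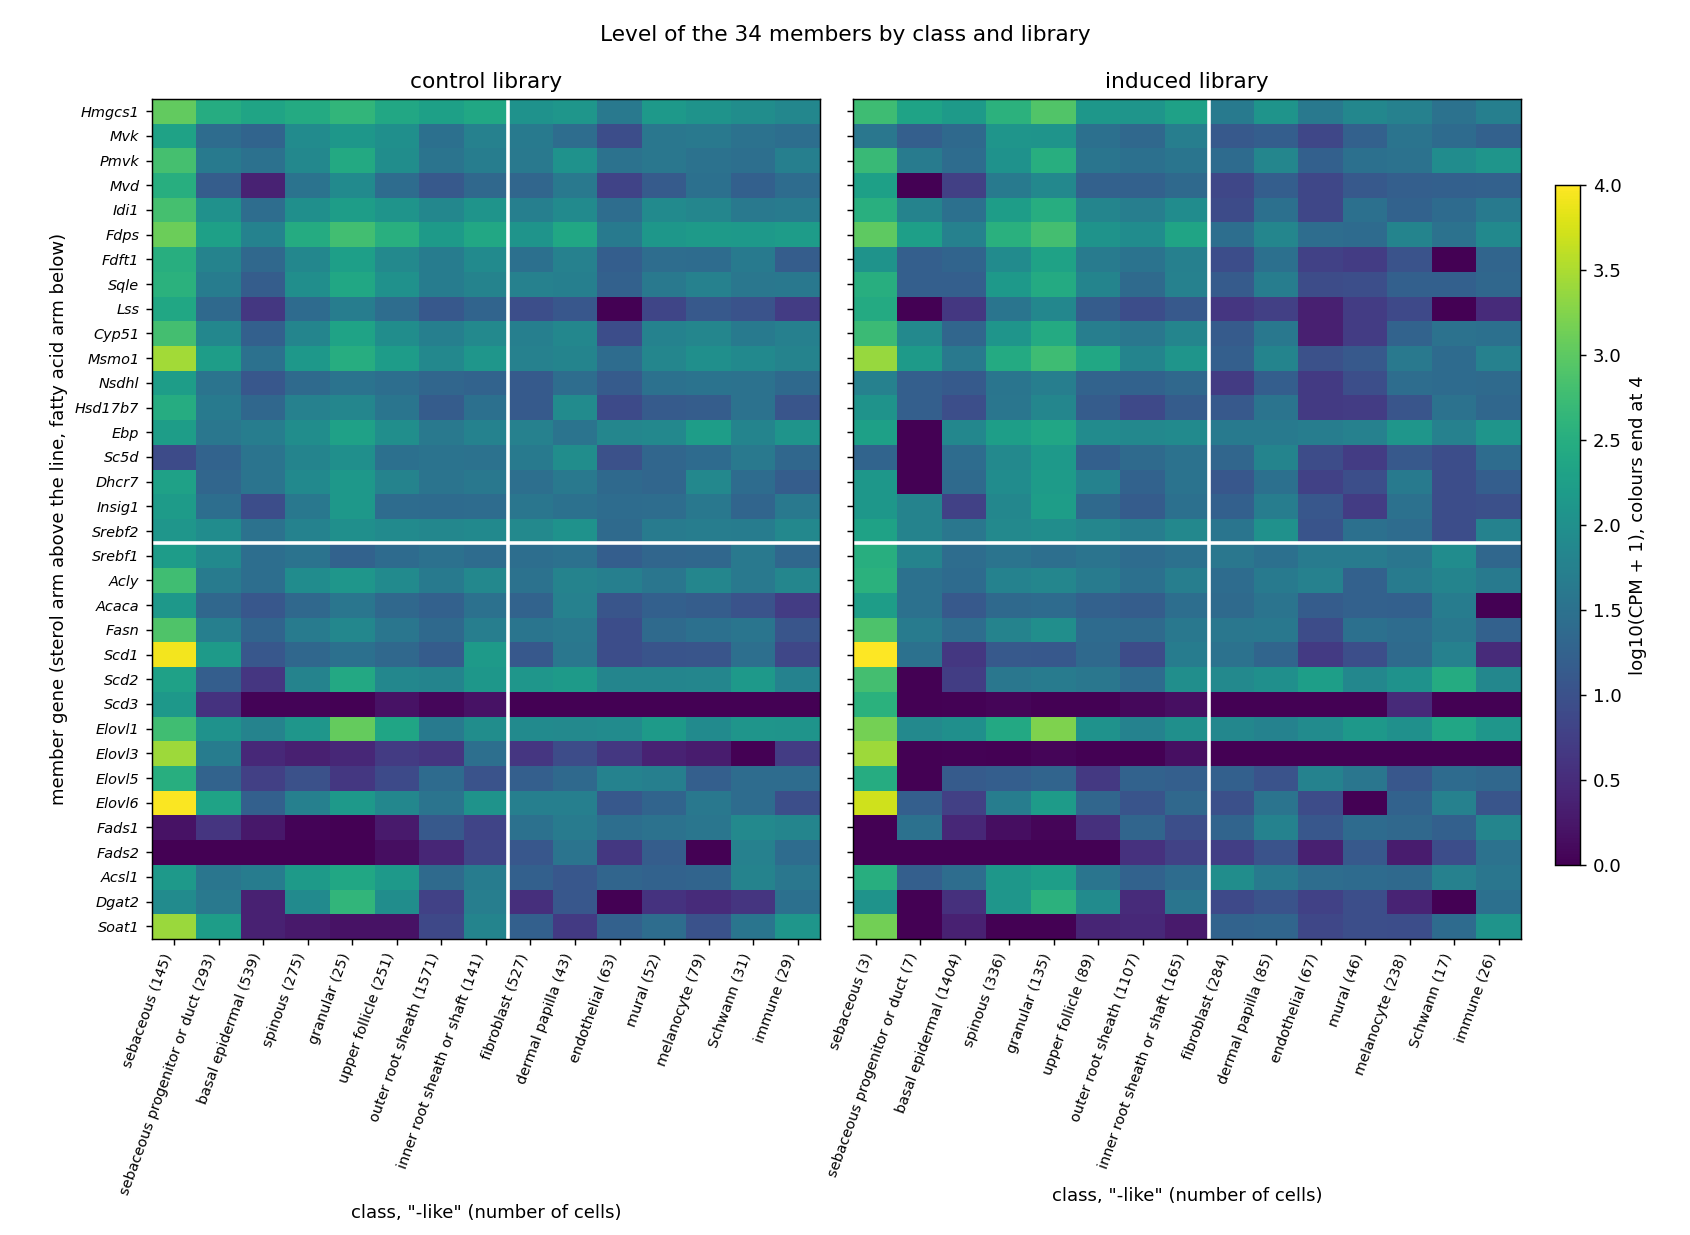
Level of the 34 members, as log10 of CPM + 1, in each class (columns, with the number of cells) of the control and the induced library. The sebaceous column is the brightest for most members, and the sterol rows brighten from basal to granular columns in both libraries.

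Between the libraries, summed over all epithelial cells, the fatty acid arm was much lower in the induced library and the sterol arm somewhat lower. The median log2 ratio was -1.02 for the fatty acid arm and -0.42 for the sterol arm, against -0.10 over 5861 genes. Past 2-fold lower were 8 of 16 fatty acid and 2 of 18 sterol members, where 4.23% of genes were, and no member was past 2-fold higher, where 2.24% were. Scd1 went from 609.5 CPM in control to 17.4 CPM in the induced library, Elovl6 from 685.5 to 28.9, Elovl3 from 184.2 to 1.53 and Soat1 from 187.4 to 1.81 CPM. Acly, Fasn, Scd2 and Scd3 were the other 4, with Fasn at 82.3 and 37.2 CPM. Msmo1 (279.9 and 135.7 CPM) and Hsd17b7 (44.9 and 17.8 CPM) were the sterol members. The summed level of the 13 sebaceous markers moved with them, from 2568 to 634 CPM. Of the other fatty acid genes 13 of 26 were past 2-fold lower, led by Plin2 (207.1 and 17.8 CPM) and Acsbg1 (138.1 and 19.7 CPM), which are sebaceous markers, and of the other sterol genes 1 of 16 was. Among genes that averaged 20 CPM or more, Mcat, Stard4 and Lpin2 were highest, none past 2-fold.

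Without both sebaceous classes most of that difference was gone. The sterol median was 0.13 with no member past 2-fold, where 1.97% of genes were higher and 3.63% lower, and the fatty acid median was -0.07, against -0.09 over all genes. The sebaceous markers were then at 669.2 and 610 CPM. Scd1 (25.7 and 8.93 CPM), Scd2 (55.4 and 21.9 CPM) and Soat1 (8.26 and 1.03 CPM) remained past 2-fold lower. The part of free RNA from sebaceous-like cells (145 control and 3 induced) in these values was not tested. Elovl1, which elongates saturated very long chains, was past 2-fold higher, at 103.1 CPM in control and 237.5 CPM after induction (log2 ratio 1.20, interval 1.17 to 1.24). In the sterol arm Ebp had the widest difference, from 60.3 to 100.2 CPM, and Msmo1, which was lower in the sum of all cells, went from 90.1 to 134.4 CPM. Hsd17b7 stayed lower, at 25.4 and 17.8 CPM. Plin2 and Acsbg1 were again among the lowest of the other pathway genes, and Elovl4 (133.4 and 250.1 CPM), Agpat2 and Me1 the highest. The mix of classes differs between the libraries, with 539 and 1404 basal-like cells, and when every cell has the same weight the sterol median is -0.02.

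Within basal-like cells neither arm moved as a whole. The medians were 0.04 for the sterol and 0.00 for the fatty acid arm, and of all members only Elovl6 was past 2-fold in either direction, at 16.1 and 4.69 CPM, where 3.2% of genes were lower. Nearly all control cells lie in clusters E1 and E30 and the induced cells in E0, E5, E7 and E25. Of these E5 is led by stress genes, and without E5 the sterol median is 0.07. With doublets kept it is -0.34, and a cluster of 325 control and 10 induced cells led by cell cycle genes then joins the class. Of the other pathway genes Plin2 (31.2 and 11.5 CPM), Acsbg1 (30.6 and 13.1) and Mylip (30.0 and 14.2) were lowest, of which Plin2 was past 2-fold, and Agpat2, Lpin2 and Slc25a1 were highest, none past 2-fold. Below the 20 CPM filter Abca1 and Me1 were past 2-fold higher, with log2 ratios of 1.12 and 1.24.

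In spinous-like cells the sterol arm was higher in the induced library. Of 18 sterol members 17 had a ratio above 1, with a median log2 ratio of 0.48 against -0.08 over 4809 genes. Msmo1 alone was past 2-fold, where 4.85% of genes were, at 134.5 CPM in 275 control cells and 277.1 CPM in 336 induced cells, a log2 ratio of 1.04 (0.95 to 1.14). Ebp followed at 89.7 and 171.8 CPM, Cyp51 at 65.2 and 119.3, Insig1 at 39.3 and 69.9, and Idi1 at 98.5 and 167.0 CPM. Hsd17b7 was the exception at 56.8 and 36.1 CPM. Its 3′ UTR is 1 of the 6 with a miR-200b site, and Sqle, with such a site, was at 95.1 and 144.3 CPM. The fatty acid median was 0.00, with Elovl1 past 2-fold higher (123.2 and 259.9 CPM) and Acly and Scd2 at 88.5 and 58.4 and at 60.3 and 37.3 CPM. Acat2, Stard4, Me1 and Elovl4 were the other pathway genes past 2-fold higher and Plin2 the only one lower. Nearly all control cells lie in cluster E13 and all induced cells in E8, with medians of 27027 and 42535 UMIs, and the part of depth was not tested. Cluster E10 (6 control and 309 induced cells), led by Krt16 and Clca3a2, genes that also lead E13 and E8, stayed unnamed. Its sterol sum was 1005 CPM, against 1645 CPM in E13 and 2368 CPM in E8. Whether E13 and E8 match in stage of differentiation was not tested. With doublets kept the sterol median is 0.27 and no member is past 2-fold. The class then also takes in a cluster of mostly control cells that shares leading genes with E22, an upper follicle-like cluster. With a stricter cell filter the median is 0.78 and 6 members are past 2-fold.

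Granular-like cells, a cluster of 25 control and 135 induced cells, had 15 of 18 sterol members with a ratio above 1 and a median of 0.24. None was past 2-fold, where 3.46% of genes were higher. Hmgcs1 was at 432.5 and 830.1 CPM, Idi1 at 168.5 and 307.2, and Msmo1 at 310.7 and 574.3 CPM. Scd2 was far lower, at 256.9 CPM in control and 45.0 CPM in the induced cells, a log2 ratio of -2.51 (-2.72 to -2.31), and Scd1 was past 2-fold lower too (28.7 and 11.7 CPM), where 5.96% of genes were. Elovl5 was past 2-fold higher, at 3.51 and 18.2 CPM.

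In the named follicle classes the medians of both arms were below 0. Outer root sheath-like cells (1571 and 1107) had medians of -0.43 for the sterol and -0.37 for the fatty acid arm. Most control cells of this class lie in clusters E2, E3, E9, E12 and E20 and most induced cells in E4, E6, E21 and E29. Sqle there was at 47.3 and 22.9 CPM, Scd2 at 62.7 and 24.1, and Elovl6 at 33.3 and 9.99 CPM. The last pair was past 2-fold lower, where 2.87% of genes were, and no sterol member was; no member was past 2-fold higher, where 2.36% of genes were. In upper follicle-like cells the sterol median was -0.70, with Mvk, Pmvk, Fdps and Hsd17b7 past 2-fold lower against 6.21% of genes and none higher against 7.44%. Elovl6 (69.0 and 19.8 CPM) and Acsl1 (141.1 and 34.8 CPM) were also past 2-fold lower. In the cluster of that class that both libraries fill (E19, 98 and 82 cells) it was 0.10, with Msmo1 at 89.7 and 216.9 CPM the sterol member past 2-fold higher and Mvk, at 54.4 and 24.7 CPM, the sterol member lower, where 4.64% and 3.76% of genes were. The fatty acid median there was -0.32, with Dgat2 past 2-fold higher (31.6 and 75.2 CPM) and Elovl5 (15.4 and 2.87 CPM) and Elovl6 (30.9 and 9.18 CPM) lower. The other cluster, E22, holds 153 control and 7 induced cells, and its place in the class is unsure: Krt77, Calm4 and Klk7 are among its leading genes, and with doublets kept a cluster with these leading genes (206 and 9 cells) is named spinous-like. In inner root sheath-like or shaft-like cells the medians were -0.18 and -0.39, and Scd1 (148.1 and 46.3 CPM), Elovl3 (28.1 and 0.463), Elovl6 (111.8 and 21.5) and Soat1 (63.3 and 0.926) were past 2-fold lower, where 2.77% of genes were (2.84% were higher, with no member among them). These 4 are among the 7 fatty acid members of which sebaceous-like cells held over 50% of control epithelial UMIs. The part of free sebocyte RNA was not tested here either. In the clusters of this class that both libraries fill, the sterol median was -0.06 (E17, 80 and 113 cells) and -0.32 (E28, 61 and 52 cells), and the fatty acid median -0.49 and 0.06. All 4 genes were past 2-fold lower in E17, where 3.26% of genes were. In E28, where 4.62% of genes were, Soat1 (79.8 and 2.92 CPM) and Lss of the sterol arm (30.6 and 11.7 CPM) were, while Scd1 was at 20.6 and 40.8 CPM and Elovl6 at 49.9 and 49.6 CPM. In the unnamed epithelial clusters the medians were 0.01 for the sterol and 0.07 for the fatty acid arm, and no member was past 2-fold, where 3.99% of genes were higher and 7.62% lower.

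Few members kept a direction across the 6 named epithelial classes outside the sebaceous ones, a smaller share than among all genes. Of 5701 genes that averaged 20 CPM or more 18.1% were lower and 9.70% higher in all 6. All 18 sterol but only 10 of the 16 fatty acid members reached that level. Acly, Elovl3 and Acsl1 were lower in the induced library in all 6, with intervals below 0 in 5, 6 and 6 of them. Fads1 was higher in all 6, with an interval above 0 in 2 and few UMIs. No sterol member kept its direction in all 6. Ebp was higher in 5 and Hsd17b7 lower in 5, each with 5 intervals on that side of 0. Elovl3 was also lower in 6 of the 7 non-epithelial classes, with no UMI in the induced library in any of them. The part of free sebocyte RNA in these directions was not tested.

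**Figure D3:**
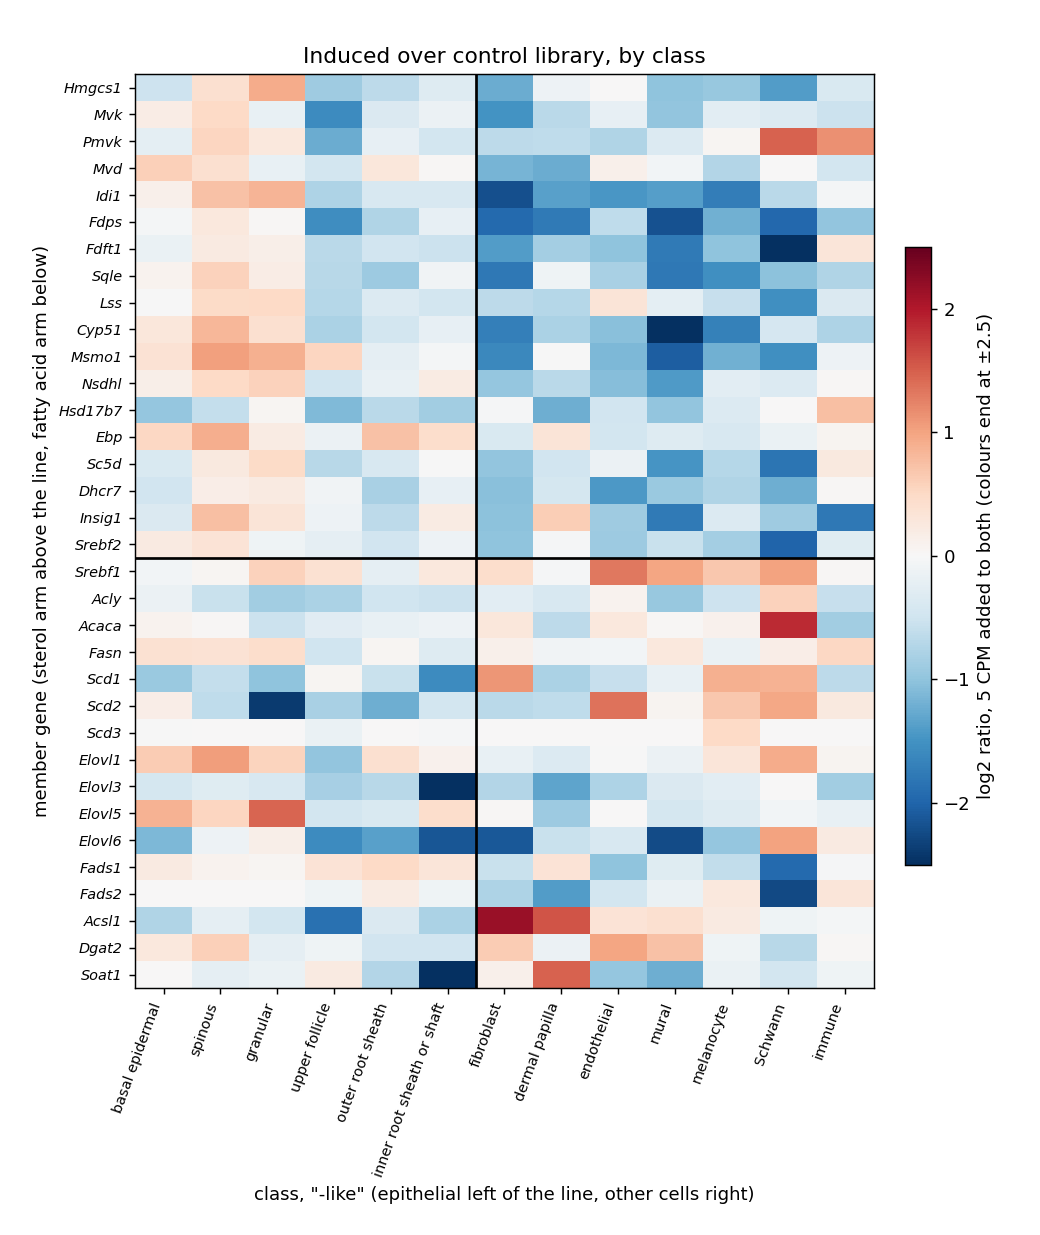
Log2 ratio of induced over control CPM, with 5 CPM added to both, for each member (rows) in 6 epithelial classes and 7 other classes (columns). Red is higher in the induced library: the sterol rows are red in the spinous column (median 0.48) and blue in the fibroblast (-1.11) and mural (-1.19) columns.

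Within each library the sterol arm was graded from the basal to the granular layer of the epidermis. From basal-like to spinous-like cells of the control library 13 of 18 sterol members were past 2-fold higher, where 4.82% of genes were (9.47% were lower), with a median log2 ratio of 1.63. In the induced library 17 of 18 were, where 8.56% of genes were, with a median of 2.07. From basal-like to granular-like cells 17 of 18 in control and 18 of 18 in the induced library were past 2-fold higher, against 16.0% and 14.1% of genes, and the medians were 2.59 and 3.06. Over all genes those medians were -0.33 and -0.42. Hmgcs1 was the control exception, at 218, 281.9 and 432.5 CPM in the 3 layers.

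The steepest sterol members were low in basal-like cells. In control Mvd was at 1.39 CPM in basal-like, 31.8 in spinous-like and 81.9 CPM in granular-like cells, and Insig1 at 7.68, 39.3 and 135.8 CPM. Sqle was at 14.0, 95.1 and 244.6 CPM, Fdps at 59.0, 283.3 and 623.2, and Msmo1 at 30.2, 134.5 and 310.7 CPM. The induced library had the same order of layers, with Insig1 at 4.87, 69.9 and 170.4 CPM and Sqle at 15.03, 144.3 and 280.2 CPM. Per cell, Msmo1 had a UMI in 5.39%, 24.4% and 27.3% of control cells thinned to 2000 UMIs (35.8%, 81.8% and 88.0% before), and in 8.03%, 40.6% and 68.7% of induced ones (46.7%, 95.5% and 99.3% before). Only 22 control granular-like cells entered, for an interval of 10.7% to 50.2%.

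The fatty acid arm was split along the same axis. Dgat2 had the widest step of all members, from 1.30 CPM in basal-like to 81.2 in spinous-like and 426.6 CPM in granular-like control cells, and from 2.58 to 125.3 and 364.4 CPM in the induced library. Elovl1 was at 60.9, 123.2 and 1134 CPM and at 97.5, 259.9 and 1671 CPM. Acsl1 and Elovl6 were likewise higher in each later layer of the control, Elovl6 at 16.1, 53.6 and 139.3 CPM. Scd2 was at 3.33, 60.3 and 256.9 CPM in control but at 4.29, 37.3 and 45.0 CPM in the induced library. Of the 5 members that stood far above the rest in sebaceous-like cells, Elovl3, Scd3 and Soat1 were under 2 CPM in all 3 control layers, while Elovl6 and Scd1 (11.1, 20.8 and 28.7 CPM) were higher in each later layer. Srebf1 was at 26.9, 32.2 and 17.0 CPM, so it was not higher in granular-like cells, and Fads2 had no UMI in any layer of either library. From basal-like to granular-like cells 9 of 16 members in control and 7 of 16 in the induced library were past 2-fold higher, where 16.0% and 14.1% of genes were.

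Most other sterol pathway genes did not share the gradient. Their median from basal-like to granular-like control cells was 0.01, with 5 of 16 past 2-fold higher and 4 lower, where 16.0% and 26.0% of all genes were, so the lower count is near the background. Stard4, a sterol carrier (6.76 and 80.8 CPM), Insig2 and Acat2 were among the higher, and Mylip, which marks lipoprotein receptors for degradation (30.0 and 1.17 CPM), and Lbr were among the lower. Of the other fatty acid genes 7 of 26 were higher, Elovl4 at 7.22 and 1070 CPM, and 5 lower, a share (19.2%) below that of all genes.

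**Figure D4:**
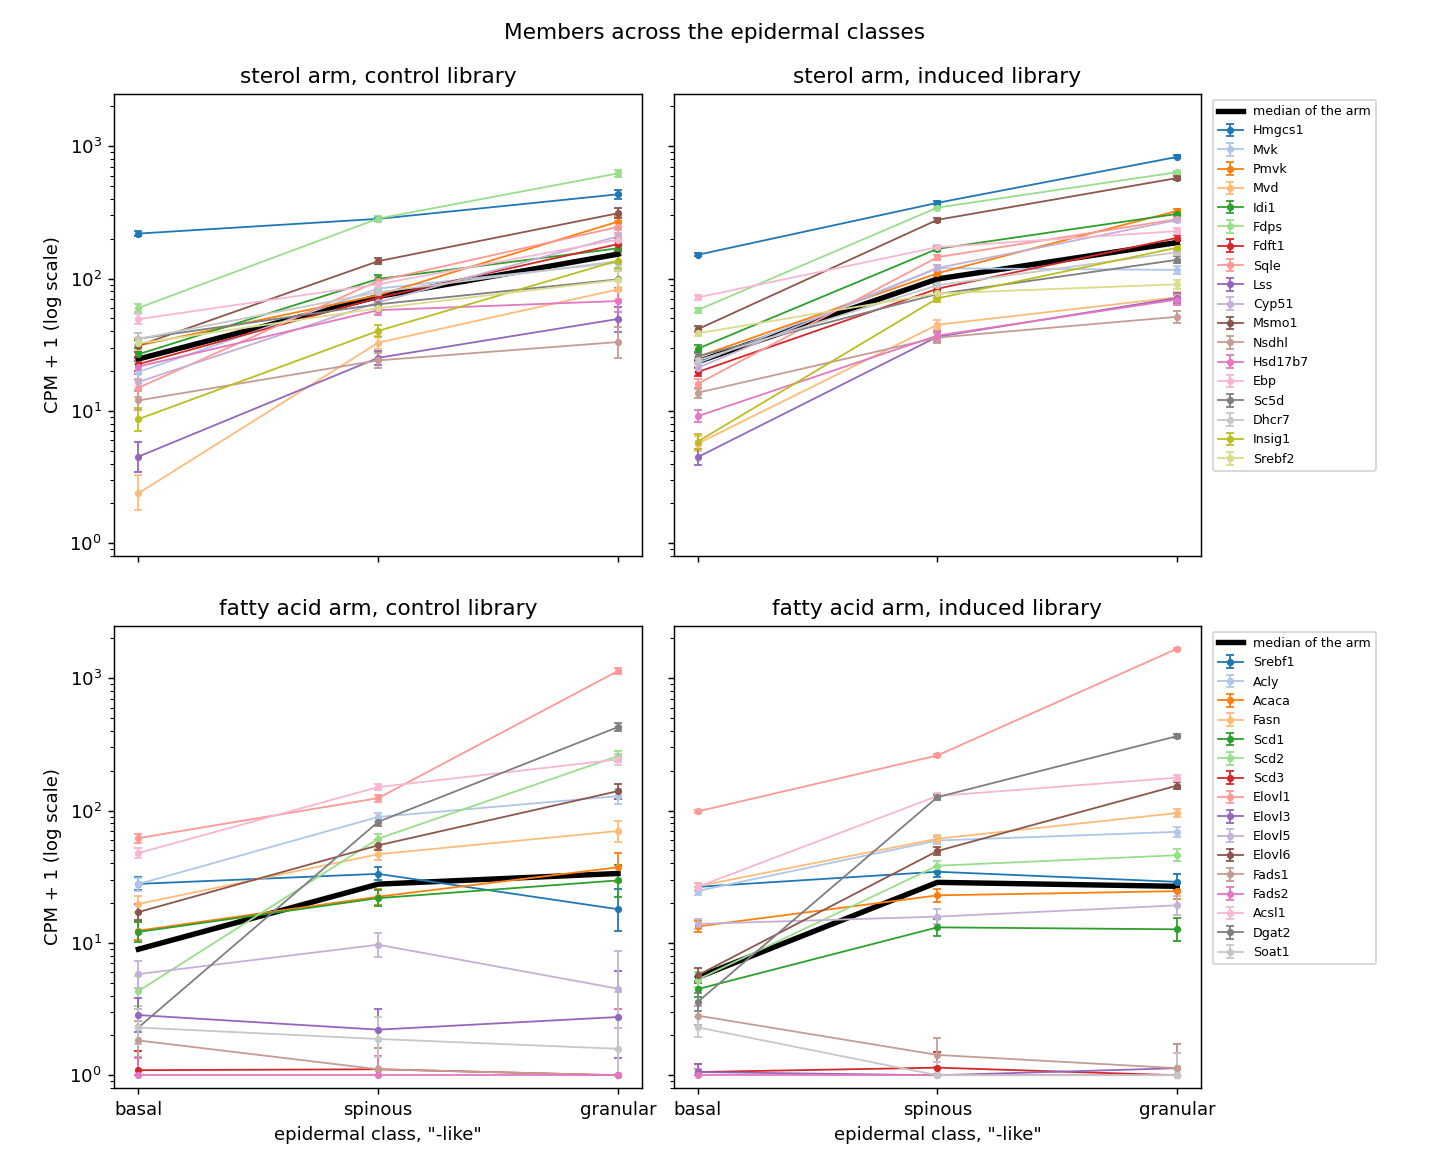
CPM + 1 (log axis) of each member in basal-like, spinous-like and granular-like cells of the control and the induced library, with 95% counting intervals and the median of the arm in black. Sterol lines climb in both libraries, while the fatty acid arm fans out between Elovl1 and Dgat2 at the top and Scd3, Elovl3, Fads2 and Soat1 at the floor.

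The promoters of the members that climb together were read from RefSeq windows of 250 bases before to 50 after each start (GRCm38), which were found for 26 of 34 members. The box CCAAT, the letters bound by NF-Y, a partner of SREBPs, occurred on either strand in at least 1 window of 15 of 15 sterol and 7 of 11 fatty acid genes, and of 41.1% of 27025 genes. A gene with several starts has several windows, and some of these lacked the box, as at other starts of Pmvk and Dhcr7. The sterol regulatory element searched as TCACNCCAC occurred in Hmgcs1 and Acsl1 only (7.69% of 26, against 1.44%). It shares no letters with CCAAT in either window. The windows below show both elements of Hmgcs1, and boxes of Msmo1, Mvd and Sc5d, the extremes of the sterol arm in sebaceous-like cells, in gene direction with the element in capitals; ATTGG is the box read on the other strand.
Hmgcs1, chr13:119690214-119690222: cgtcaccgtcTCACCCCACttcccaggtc
Hmgcs1, chr13:119690306-119690310: cccgcctctcATTGGctgaaagcgg
Msmo1, chr8:64733670-64733674: ttagcacggaCCAATcactgcacgg
Mvd, chr8:122443478-122443482: cctgtcgcctATTGGacagcacggg
Sc5d, chr9:42264320-42264324: ccggctgctgATTGGccggctgcct
Sc5d, which was lower in sebaceous-like cells, carries the box like the other sterol genes with a window; Fdps, Fdft1 and Sqle were not searched.

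Outside the epithelium the sterol arm was lower in the induced library. In fibroblast-like cells (527 control, 284 induced) all 18 sterol members had a ratio below 1, with a median log2 ratio of -1.11 against 0.01 over 6244 genes. Past 2-fold lower were 12 of 18, where 2.93% of genes were, and none was past 2-fold higher, where 4.88% were. These shares count genes that averaged 20 CPM or more. Of the 12 members that reached that level 9 were past 2-fold lower. Fewer such transcripts per cell and other kinds of fibroblast in the sample cannot be told apart in these sums.

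Idi1, Fdps, Sqle, Cyp51 and Msmo1 differed most. Idi1 was at 51.5 CPM (45.5 to 58.1) in control and at 7.26 CPM in induced cells (log2 ratio -2.83, interval -3.75 to -2.03). Fdps was at 117.5 and 26.8 CPM, a log2 ratio of -2.13 (-2.59 to -1.71), and Hmgcs1 at 108.8 and 43.0 CPM. Mvk, Mvd and Fdft1 were at 43.7 and 12.3, at 20.1 and 6.14, and at 28.8 and 7.82 CPM. Sqle was at 56.7 and 12.8 CPM, Cyp51 at 53.0 and 12.8, and Msmo1 at 56.7 and 15.1 CPM. The regulators were lower as well, Insig1 at 36.8 and 15.6 and Srebf2 at 75.7 and 35.2 CPM, as was Dhcr7 at 28.3 and 11.2 CPM. Hsd17b7 was level, at 12.6 and 12.3 CPM with a log2 ratio of -0.03 (-0.80 to 0.68), and Ebp was at 56.1 and 41.9 CPM. Pmvk, Lss, Nsdhl and Sc5d lay between.

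The fatty acid arm did not follow. Its median was 0.01, with Scd1 (11.8 and 31.3 CPM) and Acsl1 (16.1 and 89.3 CPM) past 2-fold higher and Elovl6 (52.9 and 8.38 CPM) lower. The higher pair rests on cluster N27, which holds 3 control and 77 induced cells. The 77 induced cells had UMIs of 8 of 8 adipocyte markers, summing to 9727 CPM, and the 3 control cells of none. Without it neither is past 2-fold higher and the median is -0.26, while Elovl6 is at 52.8 and 10.7 CPM. The sterol median without N27 is -0.99, with 9 of 18 past 2-fold lower against 2.37% of genes and none higher against 3.35%.

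**Figure D5:**
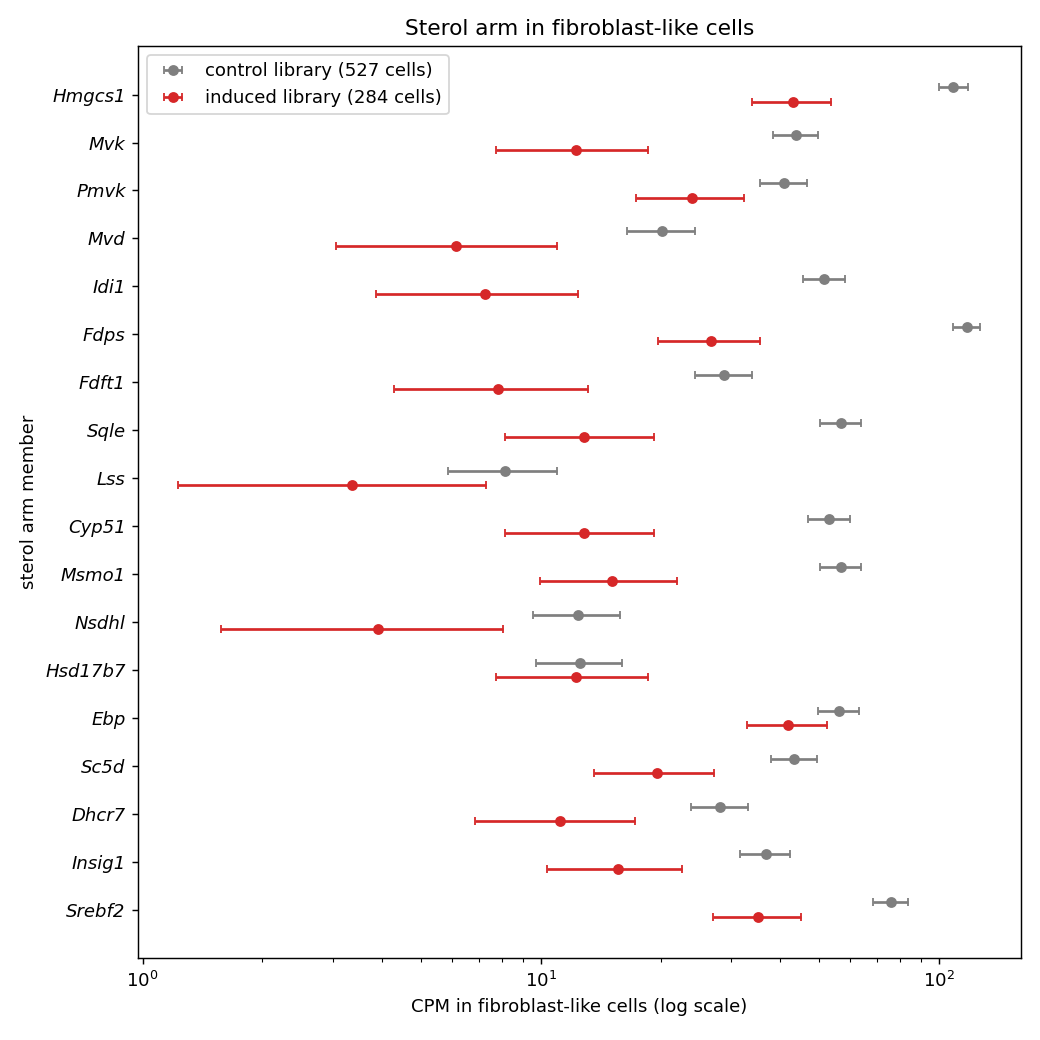
CPM (log axis) of the 18 sterol members in fibroblast-like cells of the control (grey) and the induced (red) library, with 95% counting intervals. Every red point lies left of its grey point, with Idi1 the widest apart (51.5 and 7.26 CPM) and Hsd17b7 overlapping (12.6 and 12.3 CPM).

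Per cell the difference was visible too. In cells thinned to 2000 UMIs, Fdps had a UMI in 17.8% (14.6 to 21.4) of control and 5.98% (3.38 to 9.67) of induced fibroblast-like cells (45.4% and 13.7% before), and Msmo1 in 8.81% and 3.59% (35.3% and 7.04% before). Thinning left out 5 control and 33 induced cells, and the median depths were 9509 and 5938 UMIs. Several other values moved alongside in fibroblast-like cells: the summed G2/M genes were at 209.4 and 103.9 CPM, keratins at 621 and 1457 CPM. Among cells without a G2/M UMI the sterol median is -1.04 and among cells with at least 5000 UMIs it is -1.25.

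The sterol median was below 0 in the other non-epithelial classes too, but in immune-like cells the counts were near those over all genes. The medians were -0.66 in dermal papilla-like, -0.78 in endothelial-like, -1.19 in mural-like, -0.74 in melanocyte-like, -0.96 in Schwann-like and -0.21 in immune-like cells. Past 2-fold lower were 4, 6, 10, 6, 9 and 1 of the 18 members, where 11.5%, 6.98%, 11.9%, 1.83%, 9.44% and 4.53% of genes were. These shares count genes that averaged 20 CPM or more, a level that 17, 4, 10, 14, 14 and 14 of the 18 members reached, so in endothelial-like cells most members are lower in level than the genes they are set against. In immune-like cells the member past 2-fold lower was Insig1, and 7 of 18 members had a ratio above 1. In the same classes 12.3%, 4.5%, 10.1%, 2.1%, 11.5% and 4.46% of genes were past 2-fold higher, and of the sterol members Pmvk was, in Schwann-like and immune-like cells. The 7 members Mvk, Idi1, Fdps, Sqle, Cyp51, Msmo1 and Srebf2 were lower in each of the 7 classes, and no fatty acid member was. Of 7103 genes that averaged 20 CPM or more over these classes 8.01% were, and 15 of the 18 sterol and 10 of the 16 fatty acid members reached that level. Fdps had an interval below 0 in 6 of the 7, Idi1 and Msmo1 in 5, and Mvk in 1. Srebf1 was higher in 6 of 7, with an interval above 0 in 3. Over all 862 and 790 non-epithelial cells the sterol median was -0.78, with 5 of 18 past 2-fold lower against 3.78% of genes and none higher against 4.25%, and the fatty acid median -0.03. G2/M genes were lower in the induced library in several of these classes, at 1121 and 42.0 CPM in endothelial-like and 2930 and 69.3 CPM in mural-like cells, while without cells that held a G2/M UMI the sterol median over all non-epithelial cells was -0.77. Other values moved alongside as well. Adipocyte markers were at 3072 and 12480 CPM in endothelial-like cells (3 of 8 with a UMI in both libraries) and at 214 and 3917 CPM in mural-like cells (2 of 8 in both). That list holds Fabp4, the first leading gene of the endothelial-like cluster, so the sum there is not specific to adipocytes. Keratins were at 527 and 1732 CPM in mural-like and at 870.6 and 3245 CPM in dermal papilla-like cells. Dermal papilla-like cells had median depths of 5844 and 1763 UMIs and median mitochondrial shares of 6.41% and 8.78%. The part of these values in the sterol result was not tested.

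The list of 16 other sterol genes had a median of 0.14 over all non-epithelial cells, with 4 past 2-fold higher and 0 lower, where 4.25% and 3.78% of genes were. Abca1, the cholesterol exporter, was past 2-fold higher in 7 of 7 classes, at 9.87 and 81.5 CPM in fibroblast-like cells, a log2 ratio of 3.05 (2.58 to 3.54). Mylip was higher in 7 of 7 and past 2-fold in 4, at 30.0 and 95.5 CPM in fibroblast-like cells. Both are known targets of the oxysterol receptors encoded by Nr1h2 and Nr1h3. In thinned fibroblast-like cells Abca1 was seen in 1.72% and 12% (8.35% and 31.3% before) and Mylip in 5.36% and 17.9% (23.1% and 38.4% before). Insig2 was higher in 7 of 7 without passing 2-fold, and Stard4 was lower in 5 of 7. Among the 6 named epithelial classes Abca1 and Abcg1 were each higher in 5, past 2-fold in 1 and 2, and Mylip was higher in 3 and lower in 3. In fibroblast-like cells 4 of the 16 other sterol genes were past 2-fold higher, with Abcg1 and Nr1h3 beside Abca1 and Mylip, and 1 lower, where 4.88% and 2.93% of genes were. Of the 26 other fatty acid genes Lpin1 was past 2-fold higher and Me1, which supplies NADPH, lower (51.9 and 19.5 CPM). Tecr and Slc25a1 came next, not past 2-fold, and Plin2 (37.5 and 74.8 CPM) was next highest after Abca1 and Mylip, not past 2-fold. Without N27 Abca1 was at 9.74 and 57.7 CPM and Mylip at 30.2 and 104.8 CPM, both still past 2-fold higher. Abcg1 (0.195 and 0.888 CPM), Nr1h3 (1.17 and 0.888 CPM) and Me1 (52.0 and 24.9 CPM) were then not past 2-fold.

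The summed levels of the arms ran together across epithelial clusters and not across the others. The Spearman coefficient was 0.82 over 32 epithelial clusters, 0.79 over the 30 outside the sebaceous classes, and 0.09 over 10 non-epithelial clusters. The points share libraries and depth, so the values describe these clusters only. The sterol sum ranged from 490.6 to 9640 CPM and the fatty acid sum from 210.3 to 26230 CPM over the epithelial clusters.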

How the data were processed

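Single-cell data of 2 libraries were used as deposited: whole-number UMI counts per gene and cell barcode, made by the authors with Cell Ranger 6.0.0, with mm10 as the build, per the submitters' processing notes. How reads shared by paralogs were assigned is not given in the sources used here. Barcodes with at least 1000 UMIs, 500 genes and under 15% mitochondrial UMIs were kept. The automatic doublet threshold marked few cells, so the 7% with the highest Scrublet scores were removed per library. Cells were clustered with scanpy 1.11.5 and leidenalg 0.10.2 on 2000 variable genes and 30 components, without the members, and classes were rebuilt from 19 marker lists (at least 3 markers raised 1.5-fold, with thresholds set after seeing the data). UMIs were summed per class and library. Intervals are exact Poisson or conditional binomial at 95% (scipy 1.17.1). Without replicates there is no test. The 2-fold calls and the intervals were tested on simulated counts of fibroblast-like and basal-like cells. Filtering, doublet removal, clustering, naming and thinning were not simulated. All 34 members are named, and of the other pathway genes the 3 highest and 3 lowest per main comparison among those with a mean of at least 20 CPM; any others were chosen after their values were seen. Of the listed pathway genes, 1 that the rule would name is not reported here. Members and lists were chosen with earlier results of these data known.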

Additional observations from a re-analysis of the deposited data

Results flagged for a closer look

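The sterol arm pointed in opposite directions in 2 classes under the same contrast of induced over control. In spinous-like cells its median log2 ratio was 0.48, with 17 of 18 members above 0, and in fibroblast-like cells it was -1.11, with 18 of 18 members below 0. The difference was not tested, since there is 1 library per genotype. Whether the spinous-like cells of the libraries match in stage of differentiation was not tested either.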

How the results depend on the processing

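Each arm's median log2 ratio was recomputed under 7 alternatives and, for some, in subsets of cells. Against the counting half-interval of the members nearest the median, 96 values moved by less and the other 16 by more. That half-interval is wide where counts are low (0.41 for the basal sterol and 3.0 for the basal fatty acid arm), so a smaller move there says little about stability. Over all epithelial cells the sterol median was -0.31 relative to the median gene, and the fatty acid median was -1.15 with 1 CPM added, -0.92 relative to the median gene and -0.58 as a mean over cells, where 5 rather than 8 members were past 2-fold lower. Without the sebaceous classes the sterol median was 0.22 relative to the median gene and -0.02 as a mean over cells. In sebaceous-like over other epithelial cells the sterol median was 2.34 with doublets kept, 2.39 with a stricter cell filter and 2.75 as a mean over cells. The fatty acid median there was 2.72 with doublets kept, 2.79 with the stricter filter, 3.18 with 1 CPM added, where 2 members were past 2-fold lower rather than 0, and 3.77 among members with at least 20 CPM. In spinous-like cells, in alternatives chosen after seeing the data, the sterol median was 0.27 with doublets kept (0 members past 2-fold higher), 0.78 with the stricter filter (6) and 0.79 as a mean over cells (4), against 1 as reported. Medians near 0 changed sign within that width: the basal sterol median was -0.34 with doublets kept and -0.05 among members with at least 20 CPM, the fatty acid median without sebaceous classes was 0.02 relative to the median gene, that of fibroblast-like cells lay between -0.26 and 0.02, and that of all non-epithelial cells was 0.08 as a mean over classes. Keeping doublets also changed which clusters were named basal-like and spinous-like, as given above. The cause of these changes was not tested. The fibroblast-like sterol median lay between -1.38 and -0.99. The subsets without N27, E5 or G2/M cells, and of cells with at least 5000 UMIs, were also chosen after seeing the data. Few UMIs limit Scd3, Elovl3, Fads1, Fads2 and Soat1 outside sebaceous-like cells. No paired analysis was possible because each genotype has 1 library and the labels give no replicate numbers.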
